A study of Mus musculus with 9 samples.

Results

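Transcription factors of the hepatocyte lineage are described here as Argonaute (AGO) targets in mouse liver: Gata4, Foxa1, Foxa2, Foxa3, Onecut1, Prox1, Cebpa and Cebpb. Every unique region of the authors' AGO binding map whose gene name was one of these 8 was taken, which gave 75 of 92645 regions, in 8 of 13756 gene names. Each gene was described by its single regions and by their sum, with and without the regions that carry a listed seed match to miR-122-5p. Of the 75 regions, 7 carried such a match, 9.33% against 11.5% of all regions. In AGO CLIP-seq, RNA in contact with AGO is fixed to it by ultraviolet light, purified with it and sequenced, so a read count reports AGO occupancy of a transcript and depends on the amount of that transcript too.

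The libraries came from 5 control mice with floxed alleles, 3 females and 2 males, and from 4 littermates knocked out for miR-122 (KO), 1 female and 3 males, all aged 6 weeks. Liver was frozen, powdered and crosslinked, and AGO was isolated with an antibody to all its forms. The sources used here name neither the Cre driver nor the cells in which the deletion occurred. Each library came from its own mouse.

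A microRNA loaded in AGO pairs, mainly through its seed, with messenger RNA, most often in the 3' untranslated region (3' UTR), and this lowers translation and stability of the message. miR-122 is the most abundant microRNA of hepatocytes. The factors described form a network that opens liver chromatin and starts the hepatic programme in the embryo (GATA4 and the FOXA pioneers), guides outgrowth of the liver bud and the choice between hepatocyte and bile duct fates (HNF6, encoded by Onecut1, and PROX1), and maintains metabolic gene expression or answers inflammation in the adult (C/EBPα and C/EBPβ).

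Some microRNAs other than miR-122 with seed matches in the regions described below have these mature sequences, 5′ to 3′ from RefSeq (GRCm38.p6), with the seed, bases 2 to 8, in capitals. They are shown because each has a match in a region below that changed or that was among those with the most reads of its gene, and other microRNAs with a match there are named only.
miR-191-5p: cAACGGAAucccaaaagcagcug
miR-101a-3p: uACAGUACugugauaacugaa
miR-144-3p: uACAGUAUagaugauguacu
miR-130a-3p: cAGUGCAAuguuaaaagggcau
miR-301a-3p: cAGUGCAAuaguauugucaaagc
miR-148a-3p: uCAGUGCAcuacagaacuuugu
miR-24-3p: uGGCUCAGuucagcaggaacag
miR-194-5p: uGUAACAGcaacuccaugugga
miR-130a-3p and miR-301a-3p have the same seed, and miR-101a-3p and miR-144-3p share bases 2 to 7. The authors' map lists each of these pairs as 1 family, so a match cannot be assigned to either member.

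The libraries held between 445912 and 1170130 reads in regions, of which 349 to 1221 fell in the 8 genes in a control library and 306 to 1028 in a KO library. Reads over the miR-122 hairpin locus numbered 270 to 447 in the controls and 3 to 52 in the KO libraries. Levels are given as CPM, the counts scaled to a library total of 1000000 reads in regions. Differences between groups are log2 fold changes, KO over control, on TMM-scaled counts with sex in the model. A call is an adjusted p under 0.05 in edgeR's quasi-likelihood test, with Benjamini-Hochberg adjustment over all rows tested. Each SE of a log2 fold change is its absolute value divided by the square root of that test's F statistic. Such an SE can be too small where a group holds very few reads. Libraries differed in their cell type signal: all 8 hepatocyte markers had reads, and their sum was 22270 to 29172 CPM in controls and 12062 to 19015 CPM in KO libraries. Not all went that way. Cps1 was at 5453 to 7901 CPM in controls and 2016 to 2452 CPM in KO libraries. By contrast, Ttr was at 388 to 778 and 1233 to 1856 CPM, and Tat at 206 to 368 and 313 to 900 CPM. All marker sums took in any regions with a miR-122 match, so they depend on miR-122 binding as well as on cell type. The sum of 12 neuronal markers was 40.3 to 56.4 CPM in controls, where Syn1, Stmn2, Gria2 and Dlgap1 were at 0, and 1783 to 7388 CPM in KO libraries, with KO library 4 highest at 3.63 times the average of the other 3. Cholangiocyte markers summed to 13.2 to 36.2 CPM in controls and 73.1 to 112 CPM in KO livers, mostly from Spp1 (6.16 to 20.1 and 61.4 to 106 CPM), while Sox9 was at 4.23 to 14.8 and 0.934 to 8.77 CPM and Krt19, Epcam and Cftr were at 0 in all libraries. Stellate cell markers, all 7 with reads, summed to 461 to 618 CPM in controls and 797 to 1576 CPM in KO livers. The part of these differences in the results below was not tested, except where a value is given.

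AGO reads on Gata4, Foxa1 and Foxa2 fell in the KO livers, those on Cebpb rose, and those on Cebpa, Foxa3 and Prox1 did not pass the test. Thus 3 of the 7 genes tested fell, where 23.7% of all 8857 genes tested did, and 1 rose, against 21.2% of all genes (44.9% in either direction). Their median log2 fold change was -0.45, and that of all genes tested was 0.05. With the miR-122 regions left out of every gene, 3 of 7 fell, Gata4, Foxa1 and Foxa2 again, against 13.2% of 8140 genes. None rose in edgeR's test then, against 18.3% of all genes (31.5% in either direction), although 1 had an unadjusted p under 0.05 and DESeq2 called none. The median was -0.66, beside 0.11 for all genes. With KO library 4 left out of that fit, 5 of the 7 fell, Cebpa and Foxa3 included, and Cebpb rose. Genes without a miR-122 region have the same counts in both fits, and their log2 fold changes differed by -0.22 for Cebpa and Cebpb and by -0.21 for Foxa2 and Foxa3 because the library scaling differed. Onecut1 had too few reads to pass the filter on low counts in either fit. In whole liver, fewer cells of a type and less RNA per cell cannot be told apart.

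**Figure D1:**
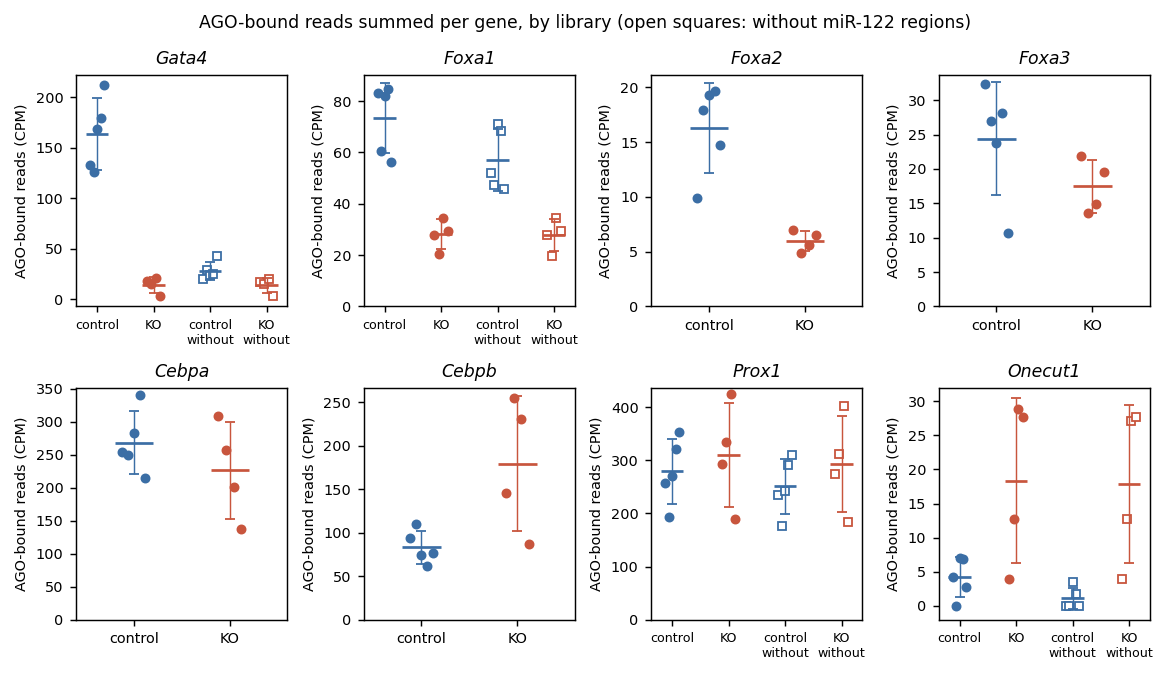
AGO-bound reads of each gene in CPM, with 1 point per library (5 control, 4 KO), a line at the mean and bars for the SD; open squares ("without") leave out the regions with a miR-122 match, for the 4 genes that have any. Gata4, Foxa1 and Foxa2 show no overlap between groups over all regions, as for 38.6% of all genes tested. Without miR-122 regions Onecut1 does not overlap either, where 32.5% of genes tested did not. The Gata4 control points drop from 126 to 212 CPM to 19.7 to 43.0 CPM once the miR-122 regions are left out.

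Gata4 encodes a zinc finger factor that primes liver chromatin in the endoderm and acts in hepatocytes, endothelium and stellate cells of the liver. Its 8 regions summed to 132, 126, 169, 179 and 212 CPM in control livers 1 to 5, and to 17.9, 14.6, 20.5 and 3.27 CPM in KO livers 1 to 4. Every KO library lay below every control library. Of all genes tested, 38.6% had no overlap between groups, counted in either direction. The means were 164 ± 35.5 CPM (SD, n = 5) and 14.1 ± 7.61 CPM (SD, n = 4), a log2 fold change of -3.67 (SE 0.30, adjusted p = 2.5e-06 in edgeR's quasi-likelihood test).

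Most of the Gata4 reads in controls came from 1 region of 70 bases in the 3' UTR, at chr14:63199835-63199904 (mm10, minus strand). It holds a 7mer match to miR-122-5p pairing with seed base 8 (7mer-m8, with its core at chr14:63199895-63199900) and an 8mer in a second miR-122-5p class, marked B in the authors' map, not defined in the sources used here, 52 bases away. A 6mer match to miR-143-3p lies between them. The authors' mean phyloP score, where higher values mean slower change between species, was 1.27 for the first match, 0.90 for the second and -0.34 for the miR-143 match. The region held 79, 40, 161, 179 and 123 reads in the controls and 1, 0, 1 and 0 reads in the KO livers, or 132 ± 31.0 CPM (SD, n = 5) against 0.482 ± 0.557 CPM (SD, n = 4). Pooled over libraries, the level in controls was 257 times that in KO livers, with a 95% counting interval (exact Clopper-Pearson) of 70.8 to 2127 that leaves out the spread between mice. The fitted log2 fold change was -7.82 (SE 0.48, adjusted p = 1.3e-08 in edgeR's test), between -8.32 without KO library 1 and -7.25 without KO library 2, the extremes when each library was left out. An 8mer match to miR-122-5p lies in a Gata4 intron as well, at chr14:63205393-63205462, with 13 reads over the controls and 0 over the KO livers, at least 4.31-fold lower with the floor of 3 counts over the group. Intervals and floors cover counting error only. For the 3' UTR region, the SE of the fit is smaller than the counting interval implies, so it understates the error.

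These 2 regions with a miR-122 match took 82.8 ± 4.2% (SD, n = 5) of all Gata4 reads in controls and 2.5 ± 2.9% (SD, n = 4) in KO livers. The other 6 Gata4 regions, none with a miR-122 match, also held fewer reads in the KO livers. They summed to 19.7, 29.2, 23.7, 24.8 and 43.0 CPM in controls and 16.9, 14.6, 19.6 and 3.27 CPM in KO livers. The groups met almost edge to edge, at 19.7 CPM in control library 1 and 19.6 CPM in KO library 3, and KO library 4 was far below the other KO libraries. The log2 fold change was -1.38 (SE 0.39, adjusted p = 0.0172 in edgeR's test). Without control library 5, the highest, it was -1.12 and did not pass (adjusted p = 0.0733). The strongest of these 6, in the 3' UTR with a 7mer match to miR-26-5p at a phyloP of 2.56, held 11.9 ± 7.86 CPM (SD, n = 5) in controls and 5.89 ± 1.91 CPM (SD, n = 4) in KO livers and had too few reads for the test.

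The 3 FOXA factors are winged-helix pioneer factors: FOXA1 and FOXA2 open chromatin for liver genes, and FOXA3 is the paralogue most tied to metabolism in adult liver. Foxa1 reads summed to 83.2, 60.6, 81.8, 84.6 and 56.4 CPM in control livers 1 to 5 and to 27.8, 20.5, 34.6 and 29.4 CPM in KO livers 1 to 4. The groups did not overlap, and the means were 73.3 ± 13.7 CPM (SD, n = 5) and 28.1 ± 5.82 CPM (SD, n = 4), with a log2 fold change of -1.49 (SE 0.24, adjusted p = 0.000374 in edgeR's test).

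Of the 8 Foxa1 regions, 2 were tested and both fell. One lies in the 3' UTR at chr12:57541675-57541744, with a 6mer match to miR-122-5p (phyloP 1.05), and held 31.0, 13.5, 10.6, 16.2 and 10.7 CPM in controls and 0, 0.975, 0 and 0 CPM in KO livers. Control library 1 stood above the other controls, and the only KO read was in library 2. The pooled control level was 59.2 times that in KO livers (95% counting interval 10.3 to 2371). The fitted log2 fold change was -5.29 (SE 0.82, adjusted p = 5.5e-05 in edgeR's test). Without KO library 2 it was -6.73, but no KO reads remained then, so the size of that fold is not a measured one. The SE of 0.82 is smaller than the counting interval implies, so it understates the error. The other Foxa1 region that fell lies in the coding sequence at chr12:57543240-57543309 and has no listed match to any microRNA. It held 24.0, 20.2, 45.7, 31.6 and 26.9 CPM in controls and 5.96, 0, 0 and 0 CPM in KO livers. All of its 6 KO reads were in library 1, the female, and the groups did not overlap, as for 38.4% of all regions tested. Its log2 fold change was -4.11 (SE 0.66, adjusted p = 7.2e-05 in edgeR's test). Without KO library 1 it was -7.70, but no KO reads remained then, so the size of that fold is not a measured one. Without the miR-122 region, Foxa1 held 56.9 ± 12.1 CPM (SD, n = 5) in controls and 27.8 ± 6.25 CPM (SD, n = 4) in KO livers, a log2 fold change of -1.38 (SE 0.26, adjusted p = 0.00190 in edgeR's test).

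Foxa2 has 4 regions, all in the coding sequence and none with a miR-122 match. They summed to 9.87, 17.9, 19.3, 19.7 and 14.8 CPM in control livers 1 to 5 and to 6.96, 4.87, 5.60 and 6.53 CPM in KO livers 1 to 4. Every KO library lay below the lowest control library. The log2 fold change was -1.57 (SE 0.38, adjusted p = 0.00477 in edgeR's test), although no single Foxa2 region had enough reads for the test. Its strongest region, with a 7mer match to the miR-130a-3p and miR-301a-3p family (phyloP 2.25), held 24 reads over the controls and 5 over the KO livers. The next held 21 and 9 reads.

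Foxa3 reads summed to between 10.7 and 32.4 CPM in controls and 13.6 and 21.9 CPM in KO livers, so the KO range lay within the control range. The means were 24.4 ± 8.25 CPM (SD, n = 5) and 17.5 ± 3.86 CPM (SD, n = 4), with a log2 fold change of -0.45 (SE 0.34, adjusted p = 0.307 in edgeR's test). Over 3' UTR regions alone it was 0.21 (adjusted p = 0.731). The share of Foxa3 reads in its 3' UTR was 34.4% in controls and 81.0% in KO livers. These shares rest on 8 to 33 Foxa3 reads per control library and 12 to 22 per KO library. The 3' UTR share of the whole map was 28.2% in controls and 35.0% in KO livers. The Foxa3 regions with the highest means over all libraries both lie in the 3' UTR. They held 16 and 17 reads over the controls and 23 and 19 over the KO livers. The 3 coding regions held 25, 24 and 16 reads over the controls and 2, 9 and 3 over the KO livers. No Foxa3 region had enough reads for the test. The hepatocyte marker sum was lower in KO livers too, with means of 25582 and 15991 CPM, although Ttr was higher, and the stellate sum was higher. The part of these markers in the lower values of Gata4, Foxa1 and Foxa2 was not tested.

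**Figure D2:**
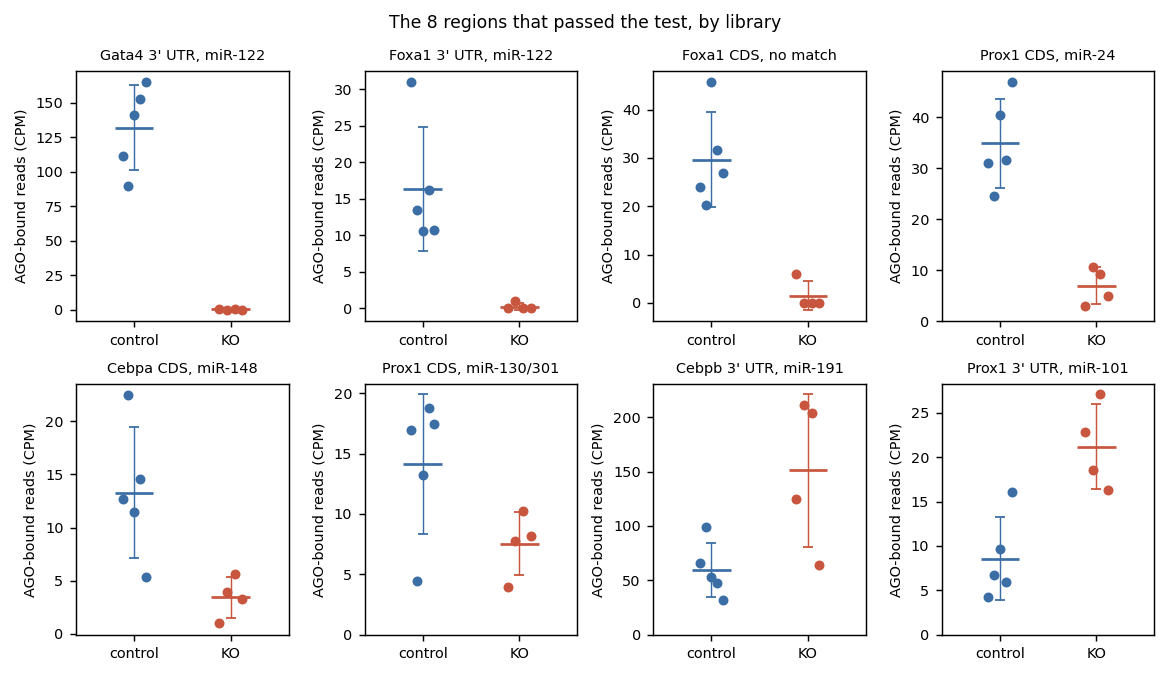
AGO-bound reads in CPM in each of the 8 regions that passed the test, with 1 point per library (5 control, 4 KO), a line at the mean and bars for the SD. The Gata4 and Foxa1 miR-122 regions are at or near 0 in every KO library, while the Cebpb and Prox1 3' UTR regions rise to 151 and 21.2 CPM.

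Across the 8 genes, 21 regions had enough reads for the test, and 54 regions, with 7 to 73 reads over all libraries (median 29), did not. Of the 21, 6 fell, where 27.6% of all 17182 regions tested did, and 2 rose, against 17.5% (45.1% in either direction). By place in the transcript, 4 of the 8 tested coding regions fell, in Foxa1, Prox1 (2 regions) and Cebpa, against 20.1% of all coding regions without a miR-122 match. None of the 8 rose, against 9.68%. No coding region of these genes rose at an unadjusted p under 0.05 in edgeR or in DESeq2's test either. Of the 10 tested 3' UTR regions without a miR-122 match, 2 rose, in Cebpb and Prox1, against 31.1%, and none fell, against 7.63% of all such regions. None fell at an unadjusted p under 0.05 in edgeR or in DESeq2's test. The median log2 fold changes were -0.83 over the 8 coding regions (-0.04 over all coding regions without a match) and 0.33 over the 10 3' UTR regions (0.54 over all such regions). Of the 3 tested regions with a miR-122 match, 2 fell, against 89.0% of all such regions.

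**Figure D3:**
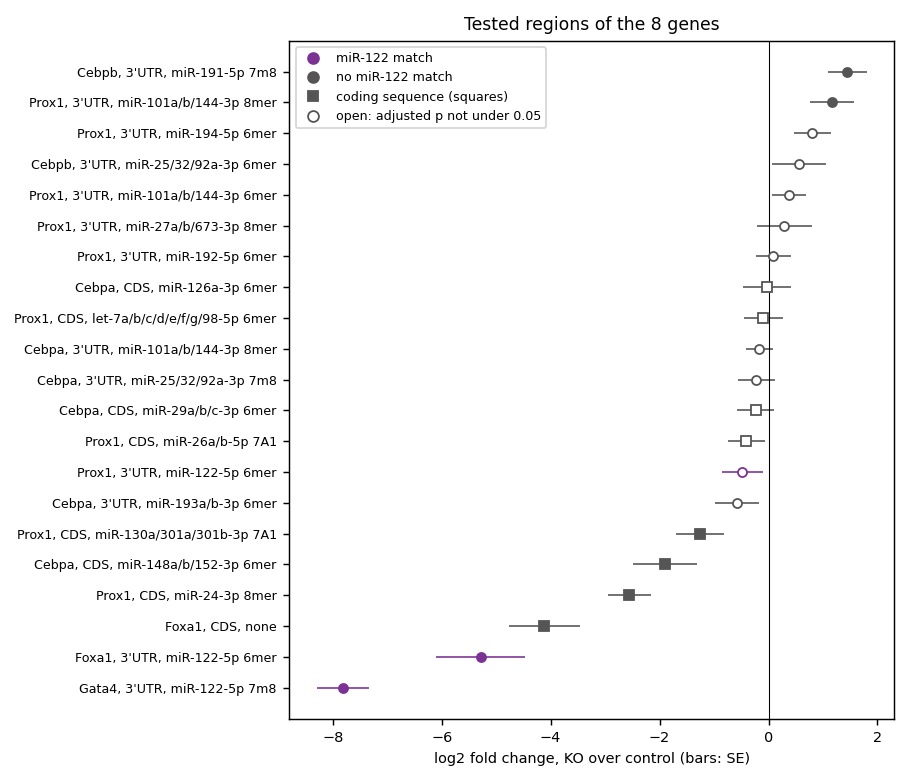
Log2 fold change, KO over control, of each of the 21 tested regions, with its SE, derived from the test's F statistic, as a bar. Filled symbols passed the test, squares lie in coding sequence, and purple marks a miR-122 match. The regions that fell are the miR-122 regions of Gata4 and Foxa1 and 4 coding regions, and those that rose are 3' UTR regions of Cebpb and Prox1.

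Prox1 encodes a homeodomain factor that hepatoblasts need to migrate into the surrounding tissue and that represses bile acid synthesis in the adult; lymphatic endothelium and some neurons express it too. It had the most regions, 29, of which 10 were tested. The gene sum ranged from 193 to 353 CPM in controls and from 189 to 424 CPM in KO livers, overlapping throughout. The means were 279 ± 62.0 CPM (SD, n = 5) and 310 ± 97.5 CPM (SD, n = 4), with a log2 fold change of -0.09 (SE 0.19, adjusted p = 0.740 in edgeR's test), whose sign changed between scalings. Without miR-122 regions it was -0.23 (SE 0.18, adjusted p = 0.377).

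Single Prox1 regions moved in both directions. The coding region at chr1:190160617-190160686, with an 8mer match to miR-24-3p (phyloP 2.32), held 31.0, 24.7, 40.5, 31.6 and 47.0 CPM in controls and 2.98, 10.7, 9.34 and 4.90 CPM in KO livers. All KO libraries lay below all control libraries. It fell with a log2 fold change of -2.55 (SE 0.39, adjusted p = 4.9e-05 in edgeR's test). The 3' UTR region at chr1:190118330-190118460, with an 8mer match to the miR-101/144 family (phyloP 2.71), held 4.23, 6.73, 9.67, 5.98 and 16.1 CPM in controls and 22.9, 18.5, 27.1 and 16.3 CPM in KO livers. Here the lowest KO library, 4, lay just above the highest control library, 5. It rose with a log2 fold change of 1.17 (SE 0.41, adjusted p = 0.0281 in edgeR's test), but did not pass without control library 1 (0.99), control library 4 (0.84), KO library 1 (0.97) or KO library 3 (1.16), with TMM from rows free of miR-122 matches (1.04) or with no filter on low counts (1.06). A second coding region, at chr1:190146951-190147020 with a 7mer match to the miR-130a-3p and miR-301a-3p family (phyloP 2.99), held 14.2 CPM in controls and 7.55 CPM in KO livers on average. Its groups overlapped, since control library 2 had only 4.49 CPM. Its log2 fold change of -1.26 (SE 0.44, adjusted p = 0.0259 in edgeR's test) did not pass without control library 5 (-1.29) or KO library 1 (-1.04), 2 (-1.06) or 3 (-1.28), under upper quartile factors (-1.03) or without the sex term (-1.003).

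The regions of Prox1 with the most reads are neighbours in the 3' UTR with 6mer matches to miR-194-5p. The first, at chr1:190119765-190119901, held 33.8 ± 6.65 CPM (SD, n = 5) in controls and 42.5 ± 23.9 CPM (SD, n = 4) in KO livers (log2 fold change 0.38, adjusted p = 0.361 in edgeR's test). The second, at chr1:190119639-190119708, held 18.8 ± 9.94 CPM (SD, n = 5) and 44.0 ± 16.4 CPM (SD, n = 4). Its log2 fold change of 0.80 (SE 0.34, adjusted p = 0.0642 in edgeR's test) passed without control library 1 (0.88), under upper quartile factors (1.03) and without the sex term (1.13).

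Another 3 Prox1 regions hold a miR-122-5p match. The one in the 3' UTR, a 6mer, had 20.2 ± 7.76 CPM (SD, n = 5) in controls and 16.7 ± 8.31 CPM (SD, n = 4) in KO livers, and did not pass (log2 fold change -0.48, adjusted p = 0.321 in edgeR's test). In an intron, a 6mer and a 7mer ending opposite an A (7mer-A1) lie 61 bases apart at chr1:190163641-190163766, with 24 reads over the controls and 1 over the KO livers, a pooled ratio of 21.2 (95% counting interval 3.46 to 872). Another intronic region, with a 7mer-m8 match, held 10 reads and 1 read, a ratio of 8.83 (interval 1.26 to 383). These 3 regions took 9.8% of Prox1 reads in controls (8.1 to 12.2%) and 5.2% in KO livers (2.6 to 7.0%).

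The makeup of Prox1 reads differed between groups. The share in its 3' UTR was 48.2 to 58.6% in controls and 65.5 to 79.3% in KO livers, with means of 54.6 ± 4.7% (SD, n = 5) and 71.2 ± 6.2% (SD, n = 4). The ranges did not overlap, with the KO higher, as for 29.7% of the 2363 genes with at least 20 reads in every library. The coding share was 40.3% and 24.1%. Over all regions of the map the 3' UTR share was 28.2% in controls and 35.0% in KO livers. Cebpa and Cebpb, the other genes of the 8 with that many reads, overlapped between groups in their 3' UTR share. Summed markers of sinusoidal and lymphatic endothelium were at 526 to 697 CPM in controls and 312 to 671 CPM in KO livers, and their part and that of the neuronal markers in the Prox1 values was not tested.

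**Figure D4:**
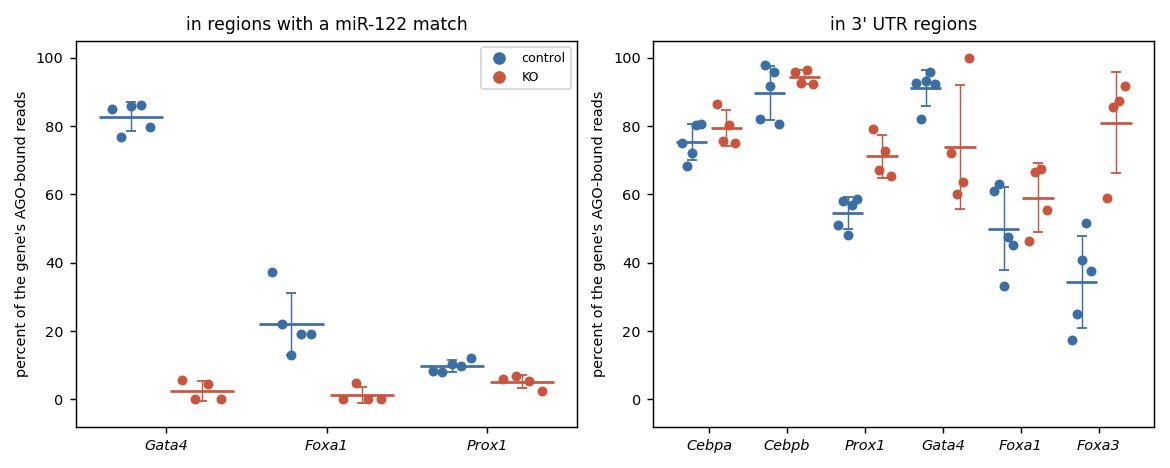
Percent of each gene's AGO-bound reads that fell in regions with a miR-122 match (left) and in 3' UTR regions (right), with 1 point per library, a line at the mean and bars for the SD. Gata4 goes from 82.8% to 2.5% in miR-122 regions, and Prox1 from 54.6% to 71.2% in its 3' UTR.

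Onecut1, which encodes HNF6, a factor of hepatocyte and bile duct development that also acts in neurons, had the fewest reads. Its 5 regions summed to 4.23, 0, 7.04, 6.84 and 2.68 CPM in control livers 1 to 5 and to 3.97, 12.7, 29.0 and 27.8 CPM in KO livers 1 to 4. KO library 1 lay among the controls and the other KO libraries above them. Without the region with a miR-122 match, 0, 0, 3.52, 1.71 and 0 CPM in controls stood against 3.97, 12.7, 27.1 and 27.8 CPM in KO livers, and the groups did not overlap, as for 32.5% of the genes tested in that fit. Fitted without a filter on low counts, the log2 fold change was 1.34 (SE 0.64, adjusted p = 0.118 in edgeR's test) over all regions and 2.67 (SE 0.82, adjusted p = 0.0279) without the miR-122 region. With KO library 1 left out, the sum over all regions passed the filter. Its log2 fold change was then 2.10 (SE 0.72, adjusted p = 0.0412 in edgeR's test).

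The strongest Onecut1 region, at chr9:74890234-74890303 with a 6mer match to the miR-130a-3p and miR-301a-3p family (phyloP 1.75), held 0 reads in all controls and 2, 10, 11 and 8 reads in the KO livers. The KO mean was 8.77 ± 4.75 CPM (SD, n = 4), at least 12.3-fold higher than the controls with the floor of 3 counts over the group, 0.713 CPM. The Onecut1 region with a 6mer match to miR-122-5p held 15 reads in controls and 2 in KO livers, a pooled ratio of 6.62 (95% counting interval 1.54 to 59.7). The 3 regions called 3' UTR by the authors start 586, 1040 and 1830 bases past the end of Onecut1 in RefSeq's annotation, and both intronic regions overlap the long noncoding RNA Gm38678, so reads of these genes could not be told apart. The neuronal marker sum was also higher in the KO libraries, at 1783, 1999, 2323 and 7388 CPM in KO livers 1 to 4. Of the cholangiocyte markers, Spp1 was higher in every KO library than in any control and Sox9 was not. The part of either in the Onecut1 reads was not tested.

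Cebpa and Cebpb encode basic leucine zipper factors: C/EBPα drives metabolic genes of the resting hepatocyte, and C/EBPβ is induced in the acute phase and in regeneration. Neither has a region with a miR-122 match. Cebpa reads summed to 254, 249, 282, 341 and 215 CPM in control livers 1 to 5 and to 309, 257, 201 and 137 CPM in KO livers 1 to 4. The groups overlapped, and KO library 4 was the lowest of all. The log2 fold change was -0.32 (SE 0.19, adjusted p = 0.205 in edgeR's test), and in the fit without miR-122 regions -0.54 (adjusted p = 0.0508), which passed without KO library 1 (-0.78) or 4 (-0.53) or control library 1 (-0.65), 2 (-0.64), 3 (-0.62) or 5 (-0.67).

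The region with the most Cebpa reads, in the 3' UTR at chr7:35121259-35121328 with an 8mer match to the miR-101/144 family (phyloP 1.45), took 52.6% of them in controls and 53.8% in KO livers. It held 141 ± 24.8 CPM (SD, n = 5) and 124 ± 53.5 CPM (SD, n = 4), a log2 fold change of -0.17 (adjusted p = 0.605 in edgeR's test). The next, in the 3' UTR with a 7mer match to miR-25/32/92a-3p, held 34.6 ± 14.1 CPM (SD, n = 5) and 32.3 ± 14.4 CPM (SD, n = 4) and did not pass (-0.22, adjusted p = 0.625). One coding region fell, at chr7:35120004-35120073 with a 6mer match to the miR-148/152 family (phyloP 1.21). It held 12.7, 22.4, 11.4, 14.5 and 5.37 CPM in controls and 0.994, 3.90, 5.60 and 3.27 CPM in KO livers, so that control library 5 lay just below KO library 3. The log2 fold change was -1.90 (SE 0.58, adjusted p = 0.0132 in edgeR's test), and -1.23, not past the threshold, without KO library 1.

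Cebpb was the only gene of the 7 tested whose sum rose. It held 94.4, 110, 73.9, 61.5 and 76.5 CPM in control livers 1 to 5 and 146, 254, 231 and 86.5 CPM in KO livers 1 to 4. KO library 4 lay within the control range and the other KO libraries above it. The means were 83.2 ± 19.0 CPM (SD, n = 5) and 179 ± 77.4 CPM (SD, n = 4), with a log2 fold change of 1.03 (SE 0.29, adjusted p = 0.0127 in edgeR's test). The call was lost without control library 4 (0.80) and in the fit without miR-122 regions, where the same counts gave 0.81 (adjusted p = 0.0536), or, past the threshold, 1.14 without KO library 1 and 0.86 without KO library 4.

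The reads came mostly from 1 region in the 3' UTR, at chr2:167690322-167690391 with a 7mer-m8 match to miR-191-5p (phyloP 1.54). It held 66.2, 98.7, 52.8, 47.9 and 32.2 CPM in controls and 125, 211, 204 and 63.7 CPM in KO livers, so that only KO library 4 overlapped the controls. The log2 fold change was 1.45 (SE 0.36, adjusted p = 0.00339 in edgeR's test). With the replicate number as a block it was 0.76 (adjusted p = 0.234 in the same test), although these numbers do not pair the mice. The region took 70.3% of Cebpb reads in controls (42.1 to 89.8%) and 82.7% in KO livers (73.6 to 88.3%), so the KO range lay within the control range. The next Cebpb region held 7.0 ± 3.92 CPM (SD, n = 5) and 11.8 ± 3.42 CPM (SD, n = 4) and did not pass (0.56, adjusted p = 0.394). Summed macrophage markers were at 286 to 352 CPM in controls and at 674, 614, 731 and 356 CPM in KO livers 1 to 4. Of the 8 markers, 7 had reads and Adgre1 was at 0. Clec4f overlapped between groups, at 64.4 to 115 CPM in controls and 50.6 to 131 CPM in KO livers. Cd68, Csf1r and Ptprc overlapped too. Lyz2, C1qa and Cd74 were higher in every KO library than in any control. KO library 4 was also the lowest KO library for the summed hepatocyte, stellate and endothelial markers. The part of the macrophage markers in the Cebpb reads was not tested.

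Some microRNA families had matches in several of the 8 genes, and 29 of the 75 regions are of Prox1. A share over all regions was computed for miR-122 only (11.5%, against 9.33% here). The counts of other families therefore describe these regions and are not shown to be particular to them. miR-143-3p matches lay in 9 regions of 5 genes, miR-22-3p matches in 8 regions of 5 genes, miR-122-5p matches in 7 regions of 4 genes (Gata4, Foxa1, Onecut1 and Prox1) and matches to miR-130a-3p and miR-301a-3p in 6 regions of 3 genes. Of the 75 regions, 40 lay in 3' UTRs, 53.3% against 32.7% of all regions, and 26 in coding sequence, 34.7% against 36.3%. A listed match was missing from 12 regions, 16.0% against 17.0%.

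Of 31 other transcription factors of liver listed beside these genes, 29 had regions and 26 were tested. Reads fell on 8 of the 26, against 23.7% of all genes tested, rose on 2, against 21.2%, and did not pass on 16. Without miR-122 regions 4 of 25 fell, against 13.2%, and 1 rose, against 18.3%. In edgeR's test Atf5 fell with a log2 fold change of -2.54, Srebf1, a regulator of lipid synthesis, with -2.31, Tbx3, a T-box factor of hepatoblasts, with -1.79, Mlxipl, which encodes the carbohydrate response factor ChREBP, with -1.44, and Hlf, of the PAR bZIP family, with -1.30. Without miR-122 regions Srebf1 (-1.85), Mlxipl (-1.62) and Hlf (-1.34) still fell and Atf5 (-0.36, adjusted p = 0.232) and Tbx3 (-0.62, adjusted p = 0.207) did not pass.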

How the data were processed

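Per the submitters' processing notes, Bowtie2 and mm10 were used; how regions were called, whether duplicate reads were removed and whether counting used strand is not stated in the sources used. The authors deposited 1 matrix with read counts per region and library, not normalized per the file headers, with a log2 ratio, not used for any result, and a mean phyloP score per match, as deposited. Its 143524 rows were reduced to 92645 unique regions. Counts were summed per gene name; 25 names with several Ensembl IDs were left out of the gene fits. Regions without a gene name held 11.0% of reads.

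edgeR 4.0.16 (R 4.3.3) with TMM, filterByExpr, and sex as covariate was fitted to all rows, after tests on simulated counts; the p-values were adjusted by Benjamini-Hochberg. Alternatives included DESeq2 1.42.0, other scalings and filters, a replicate block and each library left out. Named regions were those past the threshold, those with a miR-122 7mer or 8mer, and the 2 with the highest mean in each gene, and of the other factors the 6 with the smallest p, of which 1 is not reported here. The genes and lists were chosen with earlier results of these data known.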

Additional observations from a re-analysis of the deposited data

Results flagged for a closer look

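Of 50 groups of values screened for a library apart from the rest (Dixon's ratio of the gap to the range, which chance passes in about 1 of 20), 3 passed, all in Foxa1. In the Foxa1 coding region without a listed match, KO library 1 held 5.96 CPM and the other KO libraries 0, a ratio of 1.0. In the Foxa1 3' UTR region with a miR-122 match, control library 1 held 31.0 CPM, a ratio of 0.722, and KO library 2 held 0.975 CPM, from 1 read, where the others held 0, a ratio of 1.0. Where all KO libraries but 1 hold 0, the ratio is 1.0 for any count in that library. The rate of 1 of 20 therefore does not apply to the KO values flagged here.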

How the results depend on the processing

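The replicate numbers do not pair the mice: the labels give them no shared meaning, and same-numbered deviations correlated between -0.087 and 0.011. With the replicate number as a block, 2648 genes passed in place of 3978, and 1498 in place of 2565 without miR-122 regions. Under this block Cebpb (0.60), Foxa2 (-0.99), and, without miR-122 regions, Gata4 (-1.37) and Foxa2 (-1.21) did not pass. Nor did the regions of Cebpb with miR-191 (0.76), of Cebpa with miR-148 (-2.63) and of Prox1 with miR-130a (-1.50). Without a filter on low counts, 21743 regions passed in place of 7752. Over 3' UTR regions alone, 2051 genes passed, Cebpb (0.80) did not, and Foxa3 turned to 0.21.

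Scaling mattered for values near 0: the median over all regions moved from 0.03 to 0.26 under upper quartile factors, and that over all genes from 0.05 to -0.24 under TMM taken over miR-122-free rows only. Prox1 turned to 0.021 under upper quartile factors and to 0.028 without the sex term. Under that TMM choice Cebpb did not pass (0.73) and Cebpa did (-0.61). Without miR-122 regions Cebpa passed under DESeq2 (-0.59), RLE (-0.59), upper quartile (-0.64), no filter (-0.63) and no sex term (-0.58), and Cebpb passed without the sex term (0.78) and when only 7mer and 8mer regions were left out (0.86). Under upper quartile factors the strongest Cebpa regions turned to 0.062 and 0.015.
Leaving out each library in turn, the log2 fold change ranged from -0.20 to 0.038 for Prox1 (0.029 without KO library 4) and from 0.80 to 1.36 for Cebpb. Without miR-122 regions it ranged from -0.78 to -0.33 for Cebpa, from 0.58 to 1.14 for Cebpb, from -1.67 to -1.12 for Gata4 and from -0.97 to -0.34 for Foxa3. Without KO library 4, 5 of the genes fell in that fit, now with Cebpa and Foxa3 (-0.90), and Cebpb rose (0.86). The strongest Cebpa regions ranged from -0.49 to 0.024 and from -0.57 to 0.092, and the Prox1 region with the most reads from -0.024 to 0.57. The count of regions that fell in the 8 genes was 3 without control library 3 or 4, where fewer regions passed the filter, and 10 with no filter. Gata4, Foxa1 and Foxa2 kept their direction under every alternative in which they were tested. Few reads limit Foxa2, Foxa3 and Onecut1, and Foxa2 and Onecut1 were not tested under some filters. The scaling without miR-122 rows was not run on the sums without miR-122 regions, since it is the same fit.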
